A study of Homo sapiens with 6 samples.

Results

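The GADD45 family consists of 3 human genes, GADD45A, GADD45B and GADD45G, and all 3 were found by symbol among the 35106 genes of the count table. They were compared in HCT116 cells given curcumin and in untreated HCT116 cells. HCT116 is an established human colon carcinoma line, labelled WT for genotype, and curcumin is a plant polyphenol, the pigment of turmeric. The curcumin group held 3 libraries from cells treated at 30 µM for 24 h, where the labels write the unit with a lower-case m, and the untreated group held 3 libraries whose treatment is labelled none, with no solvent named. Nothing in the labels ties the replicates to separate cultures, so p-values measure the spread between these libraries, which may be technical. The family was chosen by name with the curcumin against untreated fold changes of these same libraries already known, so the members' own differences are a description and carry no test.

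GADD45 proteins are small acidic proteins without enzymatic activity that act by binding others. They bind and activate MAP3K4 (MTK1), the kinase that starts a p38 and JNK stress cascade, they bind the CDK1 and cyclin B1 complex of mitotic entry, and they bind PCNA and the CDK inhibitor p21. GADD45A was described as a gene induced by growth arrest and DNA damage, GADD45B is a classical NF-kB and TGF-beta target that can block the JNK kinase MAP2K7, and GADD45G is induced by cytokines and is often silenced in tumours.

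The genes have the same plan in GENCODE release 29 (GRCh38), with 4 exons each in the longest coding transcript and the plus strand throughout. GADD45A (ENSG00000116717) lies on chromosome 1 at 67685061 to 67688338, GADD45B (ENSG00000099860) on chromosome 19 at 2476122 to 2478259, and GADD45G (ENSG00000130222) on chromosome 9 at 89605013 to 89606555. Their longest coding transcripts are 1496, 1373 and 1065 bases long. No other protein-coding gene of the table overlaps any of them.

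Of the 3 members, 2 matched the RefSeq promoter table (GRCh38.p14), which spans 250 bases before to 50 bases after each start site. The windows of GADD45B (chr19:2475877-2476176, plus strand) and GADD45G (chr9:89604762-89605061, plus strand) are shown, and GADD45A had no window there. Capitals mark the motifs found.
GADD45B: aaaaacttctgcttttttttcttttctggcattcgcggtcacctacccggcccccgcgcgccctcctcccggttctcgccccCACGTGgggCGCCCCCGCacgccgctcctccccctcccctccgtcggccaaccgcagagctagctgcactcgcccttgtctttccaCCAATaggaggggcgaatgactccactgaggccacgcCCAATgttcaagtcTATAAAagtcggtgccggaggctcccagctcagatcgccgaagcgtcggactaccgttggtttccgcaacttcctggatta
GADD45G: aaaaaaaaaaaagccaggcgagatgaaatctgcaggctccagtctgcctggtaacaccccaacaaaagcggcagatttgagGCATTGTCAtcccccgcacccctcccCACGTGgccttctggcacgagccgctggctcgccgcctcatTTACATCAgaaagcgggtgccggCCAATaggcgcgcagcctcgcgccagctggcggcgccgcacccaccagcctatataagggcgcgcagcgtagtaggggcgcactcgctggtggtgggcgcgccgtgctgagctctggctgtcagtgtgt

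Both windows held a CCAAT box (CCAAT), which 34.6% of 35116 promoters hold on either strand. GADD45B had 2 of them, with first bases at -82 and -45 from the start site, and GADD45G had 1 at -79. A TATA box, searched as the exact string TATAAA, lay at -31 in GADD45B, and 11.5% of all promoters hold it. That string had no match in GADD45G, but its window holds the TATA-like run tatataag, which was not searched for. An EGR motif (GCGNGGGCG, 9.43% of promoters) lay at -159 in GADD45B on the minus strand. A C/EBP-ATF element (TGATGNAA, 3.62% of promoters) lay at -102 in GADD45G, and an antioxidant response element (TGACNNNGC, 13.3%) at -169, both on the minus strand. An E-box (CACGTG), added to the search after the sequences were seen, lay at -168 in GADD45B and at -143 in GADD45G, and 7.26% of promoters hold it. The CRE (TGACGTCA, 1.85%), AP-1 (TGANTCA, 7.71%), heat shock (GAANNTTC, 6.77%), NF-kB (GGNNTTTCC, 6.26%) and GC box (GGGCGG, 15786 of 35116 promoters) motifs matched neither window. The windows held 27 and 25 CG dinucleotides, against a median of 14 over all promoters. A match is a run of letters, not a shown binding site.

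Library totals were 16663562 to 17893056 counts with curcumin and 18154380 to 20311769 without. The libraries differed in make-up as well as depth: the 100 most abundant genes took 39.9% to 43.3% of counts with curcumin and 18.9% to 22.7% without. The TMM factors, which are meant to correct for this, were 0.716 to 0.804 with curcumin and 1.30 to 1.34 without. Each level below is a TMM-normalised CPM (the count divided by the scaled library size) unless library size alone is named. With library size alone the median log2 fold change of all genes tested was -0.84 in place of -0.04. Which scaling is nearer the true levels was not tested. The 7 epithelial markers listed summed to 7210 to 8454 CPM with curcumin and 3787 to 4484 CPM without, most of it from the keratins KRT8, KRT18 and KRT19. Much of that difference depended on the scaling. With library size alone the log2 fold changes were -0.12 for KRT18 and -0.19 for KRT19, in place of 0.68 and 0.60, and 0.46 for KRT8. With each library's trend with transcript length removed, KRT18 (0.16) and KRT19 (-0.06) were not called, and KRT8 (1.055) was. KRT8 rose by 1.26 ± 0.15 and the adhesion protein EPCAM by 0.89 ± 0.15 on the log2 scale (edgeR, Benjamini-Hochberg adjusted p = 0.0001 and 0.00063), EPCAM with no call under library size alone (0.09). The intestinal factor CDX2 fell to 9.63 ± 2.96 CPM with curcumin, against 25.4 ± 1.19 CPM untreated (edgeR adjusted p = 0.00058), E-cadherin (CDH1) was not called (0.16 ± 0.17), and VIL1 did not exceed 0.872 CPM. In RNA from a whole culture, more RNA per cell and more cells with that RNA cannot be told apart.

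GADD45B had the largest difference in level. It stood at 462, 534 and 842 CPM in curcumin replicates 1, 2 and 3, against 23.1, 13.6 and 18.6 CPM in untreated replicates 1, 2 and 3. The groups were far apart, and the lowest curcumin library was 19.97 times the highest untreated one. The means were 613 ± 202 CPM with curcumin and 18.5 ± 4.74 CPM untreated (SD, n = 3 each), and the log2 fold change was 5.05 ± 0.29 (standard error). These values rest on 6180 to 10784 counts per curcumin library and 332 to 610 counts per untreated library.

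GADD45G was close to silent in untreated cells and differed by a similar factor. It had 15.8, 12.9 and 19.4 CPM in curcumin replicates 1, 2 and 3, against 0.493, 0.493 and 0.236 CPM in untreated replicates 1, 2 and 3. Every curcumin library was again above every untreated library, with 163 to 248 counts per curcumin library. The untreated libraries held 13, 12 and 6 counts, and the 95% exact Poisson interval of the 6 counts ran from 2.20 to 13.1, which covers counting error only. All were above a floor of 3 counts, which is 0.114 to 0.123 CPM in untreated libraries. The means were 16.0 ± 3.23 CPM with curcumin and 0.407 ± 0.148 CPM untreated (SD, n = 3 each), a log2 fold change of 5.28 ± 0.35.

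GADD45A was the most abundant member in untreated cells and had the smallest and least even difference. It stood at 140, 154 and 397 CPM in curcumin replicates 1, 2 and 3, against 69.97, 31.8 and 73.3 CPM in untreated replicates 1, 2 and 3. The groups did not overlap, but curcumin replicate 3 was far above the other curcumin libraries and untreated replicate 2 was below the other untreated ones. The means were 230 ± 144 CPM with curcumin and 58.4 ± 23.1 CPM untreated (SD, n = 3 each), a log2 fold change of 1.98 ± 0.42. Without curcumin replicate 3 the log2 fold change of GADD45A was 1.34, and with curcumin replicate 3 and untreated replicate 2 both left out it was 1.04.

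The margin between the groups was narrowest for GADD45A. With library size alone GADD45A had 113, 116 and 284 CPM in curcumin replicates 1, 2 and 3, against 90.9, 42.6 and 97.4 CPM in untreated replicates 1, 2 and 3. The lowest curcumin library was then 1.16 times the highest untreated one, in place of 1.91 times under TMM. The log2 fold changes under library size alone were 1.15 for GADD45A, 4.23 for GADD45B and 4.47 for GADD45G. In all 3 genes every curcumin library exceeded every untreated library, a pattern that 30.9% of the 13718 genes tested showed. By size of log2 fold change, 0.846% of genes tested had a larger value than GADD45G, 0.933% a larger value than GADD45B and 5.15% a larger value than GADD45A. Short transcripts had higher fold changes in these libraries, with a median of 0.78 over the 2124 shortest of 10602 protein-coding genes of at least 5 CPM (207 to 2019 bases, a range that holds all 3 members), against -0.09 over all 10602. With each library's trend with transcript length removed, the log2 fold changes were 1.38 for GADD45A, 4.397 for GADD45B and 4.395 for GADD45G.

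**Figure D1:**
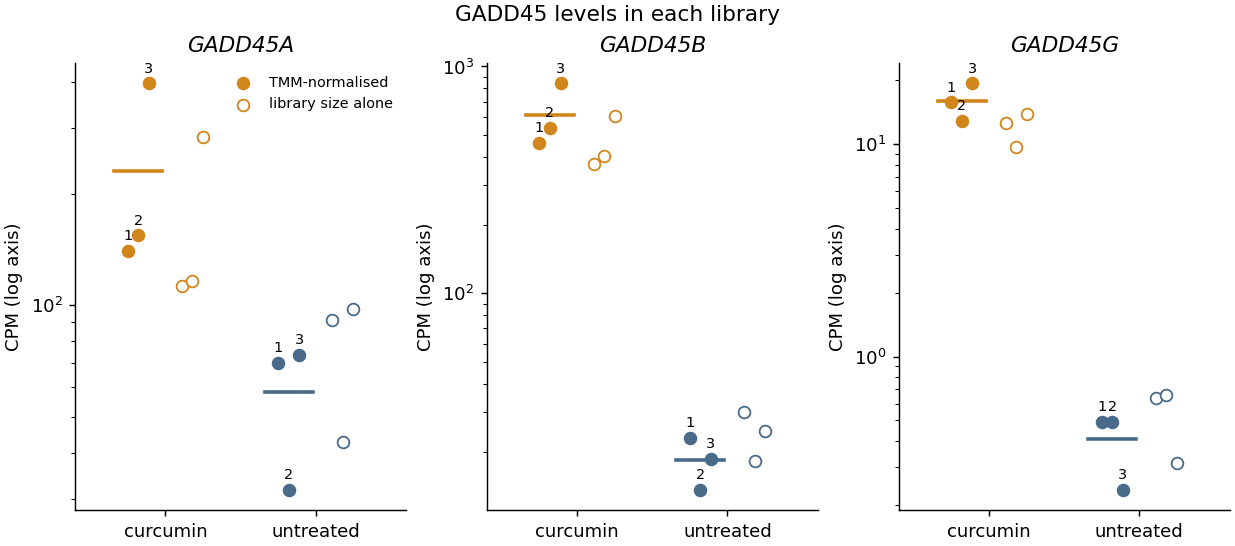
Levels of the 3 GADD45 genes in each library, in CPM on a log axis, with curcumin left of untreated; filled points are TMM-normalised values numbered by replicate, lines are their means over 3 libraries and open points are values scaled by library size alone. The 3 curcumin libraries lie above the 3 untreated ones for each gene, by the narrowest margin for GADD45A under library size alone (1.16 times).

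The order of the members differed between the groups. Per kilobase of the longest coding transcript, GADD45B had 446 ± 147, GADD45A 154 ± 96.3 and GADD45G 15.04 ± 3.03 CPM per kilobase in curcumin-treated cells (SD, n = 3). In untreated cells GADD45A had 39.0 ± 15.4, GADD45B 13.4 ± 3.45 and GADD45G 0.382 ± 0.139 CPM per kilobase (SD, n = 3). With this length the ranges of the members did not overlap within either group: the lowest curcumin value of GADD45B was 336 CPM per kilobase and the highest of GADD45A was 265. With the median length of the coding transcripts in place of the longest, GADD45B had 1077 and GADD45A 255 CPM per kilobase with curcumin, and GADD45A had 64.7 and GADD45B 32.4 CPM per kilobase untreated. The order of these means was the same, but the untreated ranges of GADD45A and GADD45B then overlapped. The lowest untreated GADD45A value was 31.8 CPM at a median length of 902 bases, and the highest untreated GADD45B value 23.1 CPM at 569 bases.

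A ratio of members within a library does not depend on the scaling between libraries. There were 3.29, 3.47 and 2.12 GADD45B counts for each GADD45A count in curcumin replicates 1, 2 and 3, against 0.330, 0.429 and 0.254 in untreated replicates 1, 2 and 3. GADD45B therefore outnumbered GADD45A in each curcumin library and in no untreated library. As a share of GADD45 counts per kilobase, GADD45B held 73.7 ± 4.66% with curcumin and 26.4 ± 4.91% untreated, and GADD45A held 23.7 ± 5.10% with curcumin and 72.7 ± 5.47% untreated (SD, n = 3 each). GADD45G held 2.59 ± 0.669% with curcumin and 0.846 ± 0.565% untreated. Set against GADD45B, there were 3.41, 2.42 and 2.30 GADD45G counts per 100 GADD45B counts in curcumin replicates 1, 2 and 3, against 2.13, 3.61 and 1.27 in untreated replicates 1, 2 and 3. This ratio overlapped between the groups.

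**Figure D2:**
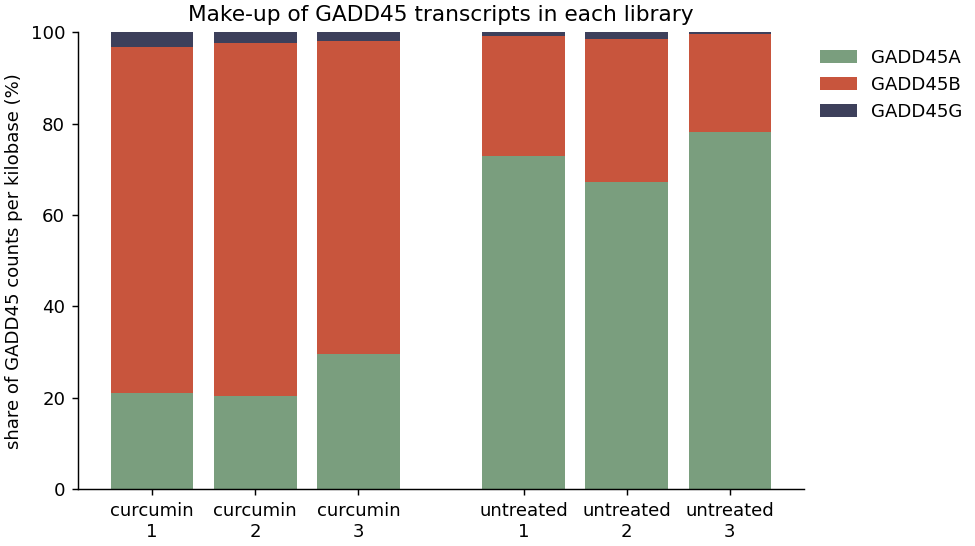
Share of each GADD45 gene among GADD45 counts per kilobase of longest coding transcript, in percent, stacked for each library with curcumin left of untreated. GADD45B holds 73.7 ± 4.66% with curcumin and 26.4 ± 4.91% untreated (SD, n = 3 each).

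The other genes first named for growth arrest, DNA damage or myeloid differentiation were split, with 2 of 3 called higher and 1 called lower (median log2 fold change 3.34). Across all 13718 genes, the quasi-likelihood test of edgeR called 27.2% higher and 28.9% lower after curcumin (Benjamini-Hochberg adjusted p under 0.05), and scaling by library size alone gave 9.62% higher and 56.5% lower. PPP1R15A (GADD34), which directs the phosphatase that reverses eIF2alpha phosphorylation, stood at 1423, 1595 and 2563 CPM in curcumin replicates 1, 2 and 3, against 80.9, 44.0 and 101 CPM in untreated replicates 1, 2 and 3. It rose by 4.63 ± 0.35 on the log2 scale (edgeR adjusted p = 1.4e-05). DDIT3 (GADD153 or CHOP), a C/EBP-family stress factor, stood at 94.1, 130 and 227 CPM in curcumin replicates 1, 2 and 3, against 19.2, 5.67 and 19.4 CPM in untreated replicates 1, 2 and 3, and rose by 3.34 ± 0.46 (edgeR adjusted p = 0.00022). MYD88, an adaptor of Toll-like receptors that was found with GADD45B in a screen for myeloid differentiation genes, fell to 17.7 ± 1.27 CPM with curcumin, against 31.2 ± 3.80 CPM untreated (log2 -0.82 ± 0.17, edgeR adjusted p = 0.0022).

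Among 13 proteins that GADD45 factors bind, 4 rose and 5 fell. Shares of 27.2% higher and 28.9% lower over all genes tested are the background for this count and for those of the lists that follow. Under library size alone the shares are 9.62% and 56.5%. With curcumin replicate 3 and untreated replicate 2 both left out, 4104 genes were called higher and 4481 lower. Nothing particular to a list is read from a count near its background. The median of the 13 genes was -0.37 on the log2 scale beside -0.04 over all genes tested. Their counts under library size alone were 1 higher and 9 lower. The 5 genes lower became 3 without curcumin replicate 3, untreated replicate 1 or untreated replicate 2. MAP3K4, the kinase that GADD45 proteins activate, fell to 19.1 ± 3.11 CPM with curcumin, against 36.2 ± 2.04 CPM untreated (log2 -0.92 ± 0.17, edgeR adjusted p = 0.0013). MAPK14, the p38alpha kinase at the end of that cascade, fell to 20.4 ± 4.73 CPM with curcumin, against 57.8 ± 1.45 CPM untreated. PCNA, the DNA polymerase clamp, fell to 51.4 ± 4.95 CPM with curcumin, against 154 ± 64.6 CPM untreated. NPM1, a nucleolar chaperone, rose to 1769 ± 74.3 CPM with curcumin, against 638 ± 111 CPM untreated. The other genes that rose were CDKN1A (p21; log2 1.22 ± 0.20), the growth inhibitor ING1 (1.06 ± 0.19) and GADD45GIP1 (0.75 ± 0.17), a mitochondrial ribosome protein named for binding GADD45G. Under library size alone none of these 3 was called, and GADD45GIP1 had a log2 fold change of -0.05. Removing the length trend also ended the GADD45GIP1 call (edgeR adjusted p = 0.15).

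Calls for the mitotic kinase and its cyclin turned on single libraries, and for the cyclin on the processing as well. CDK1, the mitotic kinase, was lower with curcumin (34.2 ± 10.3 CPM with curcumin, 64.4 ± 25.7 CPM untreated, edgeR adjusted p = 0.029), a call that was lost without curcumin replicate 3 (0.070), untreated replicate 1 (0.067) or untreated replicate 2 (0.12). CCNB1, which encodes cyclin B1, had a log2 fold change of -0.49 ± 0.29 and was not called (edgeR adjusted p = 0.18), although leaving out untreated replicate 3 brought it past the threshold (0.027). MAP2K7, the JNK kinase that GADD45B binds, had a log2 fold change of -0.44 ± 0.17 at an edgeR adjusted p of 0.049 and was called in only 5 of 18 alternatives, each removal of a library except curcumin replicate 1 ending the call (0.060 to 0.11). TDG (-0.00 ± 0.24), TET1 (-0.37 ± 0.44) and AURKA (-0.16 ± 0.28) did not pass, and each was called lower with library size alone. TDG and TET1 serve DNA demethylation, and AURKA is a mitotic kinase.

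Of 16 p38 and JNK cascade genes tested, 2 rose and 5 fell (median -0.04), while scaling by library size alone gave 1 higher and 12 lower. MAP2K3, a kinase that activates p38, rose to 376 ± 125 CPM with curcumin, against 109 ± 4.03 CPM untreated (log2 1.78 ± 0.22, edgeR adjusted p = 0.0001). MAPK11, the p38beta kinase, rose by 0.57 ± 0.16 (edgeR adjusted p = 0.014), a call lost without curcumin replicate 2 (0.054) or untreated replicate 1 (0.053) or with the length trend removed (0.086), and the value was -0.24 with library size alone. MAP2K4, which activates JNK and p38, fell to 11.7 ± 2.84 CPM with curcumin, against 39.8 ± 6.91 CPM untreated. Without curcumin replicate 3, 4 of these genes rose, without curcumin replicate 2 or untreated replicate 1 only 1 did, and with curcumin replicate 3 and untreated replicate 2 both left out, 5 rose and 4 fell.

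Of 22 known transcription regulators of GADD45 genes, 6 were called higher and 9 lower (median -0.46). Under library size alone the counts were 2 higher and 14 lower. HSF1, the heat shock factor, rose by 1.01 ± 0.15 (edgeR adjusted p = 0.00036), a call lost with library size alone (0.29). SMAD3, a TGF-beta signal transducer, fell to 32.1 ± 3.11 CPM with curcumin, against 123 ± 12.9 CPM untreated (log2 -1.94 ± 0.15, edgeR adjusted p = 1.4e-05), and POU2F1 (OCT1) and CEBPB fell as well (-2.14 ± 0.22 and -2.30 ± 0.24). The following were named after their values were seen. ATF4, the main factor of the integrated stress response, rose by 1.33 ± 0.25 (edgeR adjusted p = 0.0013), a call lost with library size alone (0.057). ATF3, a stress-induced factor, rose by 2.42 ± 0.39 (edgeR adjusted p = 0.00049), and FOXO3, a forkhead factor that acts on GADD45A, fell by 1.91 ± 0.29.

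Of 17 NF-kB targets tested other than GADD45B, 3 rose and 4 fell (median -0.36), or 0 and 10 under library size alone. The NF-kB subunit RELB rose by 1.20 ± 0.29 and the surface protein CD83 by 1.32 ± 0.22, neither called with library size alone (edgeR adjusted p = 0.23 and 0.054). BIRC3, an inhibitor of apoptosis, and NFKB1 fell (log2 -2.99 ± 0.50 and -0.89 ± 0.18).

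Of 20 ATF4 and CHOP targets tested, 7 rose and 6 fell (median 0.14), or 4 and 10 under library size alone. Beside PPP1R15A, the serine enzyme SHMT2 rose by 1.14 ± 0.13 (edgeR adjusted p = 7.2e-05), a call lost with library size alone (0.053), and CEBPB and the death receptor TNFRSF10B fell (log2 -2.30 ± 0.24 and -1.71 ± 0.25). With curcumin replicate 3 and untreated replicate 2 both left out, 6 rose and 11 fell. Of 12 genes of the G2 to M transition, 0 rose and 2 fell (median -0.09), the mitotic brake WEE1 by 1.23 ± 0.24 and CDK1. Those counts depended on the same libraries: with both left out 5 rose and 1 fell. Scaling by library size alone gave 0 higher and 8 lower, and the 2 genes lower became 1 without curcumin replicate 3, untreated replicate 1 or untreated replicate 2, and 4 without untreated replicate 3. Of 14 genes of DNA demethylation and base excision repair, 3 rose and 6 fell (median -0.19), or 1 and 10 under library size alone, and 6 rose without untreated replicate 2. The repair polymerase POLB and the endonuclease APEX1 rose by 1.32 ± 0.15 and 0.84 ± 0.13, APEX1 with no call under library size alone (edgeR adjusted p = 0.84) or after removal of the length trend (0.13). The methyltransferases DNMT3A and DNMT3B fell (log2 -1.66 ± 0.22 and -1.598 ± 0.26).

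**Figure D3:**
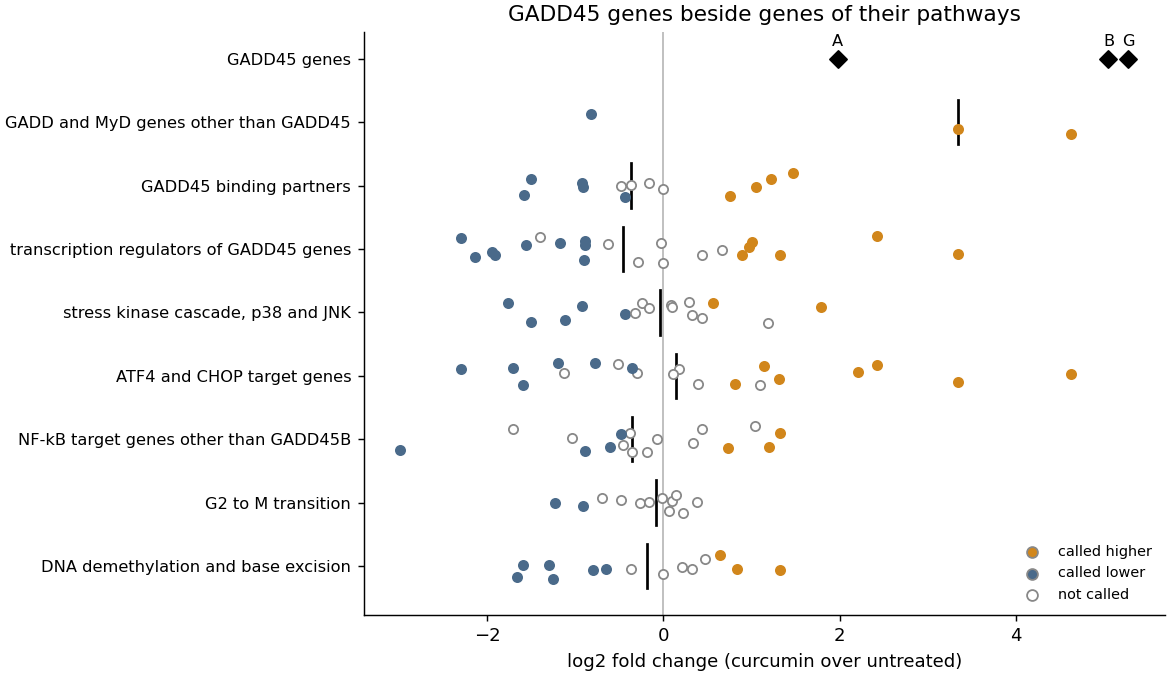
Log2 fold changes (curcumin over untreated) of the GADD45 genes, shown as diamonds, and of the tested genes of each pathway list, coloured by edgeR call at an adjusted p under 0.05; black bars are list medians. GADD45B and GADD45G lie at 5.05 and 5.28, to the right of each listed gene, of which PPP1R15A has the highest value at 4.63.

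Libraries of a group differed for GADD45A in a way that stress-response genes shared. Curcumin replicate 3 was the highest curcumin library for all 3 members, as it was for 41.25% of all genes tested. Untreated replicate 2 was the lowest untreated library for GADD45A and GADD45B but not for GADD45G, and for 40.11% of all genes tested. Both conditions held for 14 of the 20 tested ATF4 and CHOP targets and for 17.3% of all genes tested, a count made after the values were seen. TRIB3, a pseudokinase that damps ATF4 signalling, had 220, 329 and 670 CPM in curcumin replicates 1, 2 and 3, against 190, 65.6 and 235 CPM in untreated replicates 1, 2 and 3, so its groups overlapped. SESN2, a stress-inducible inhibitor of mTORC1, had 75.1, 97.4 and 276 CPM in curcumin replicates 1, 2 and 3, against 77.0, 33.6 and 98.5 CPM in untreated replicates 1, 2 and 3, and was not called (edgeR adjusted p = 0.078). The part of these libraries' state in the GADD45A values was not tested beyond leaving them out, as above.

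**Figure D4:**
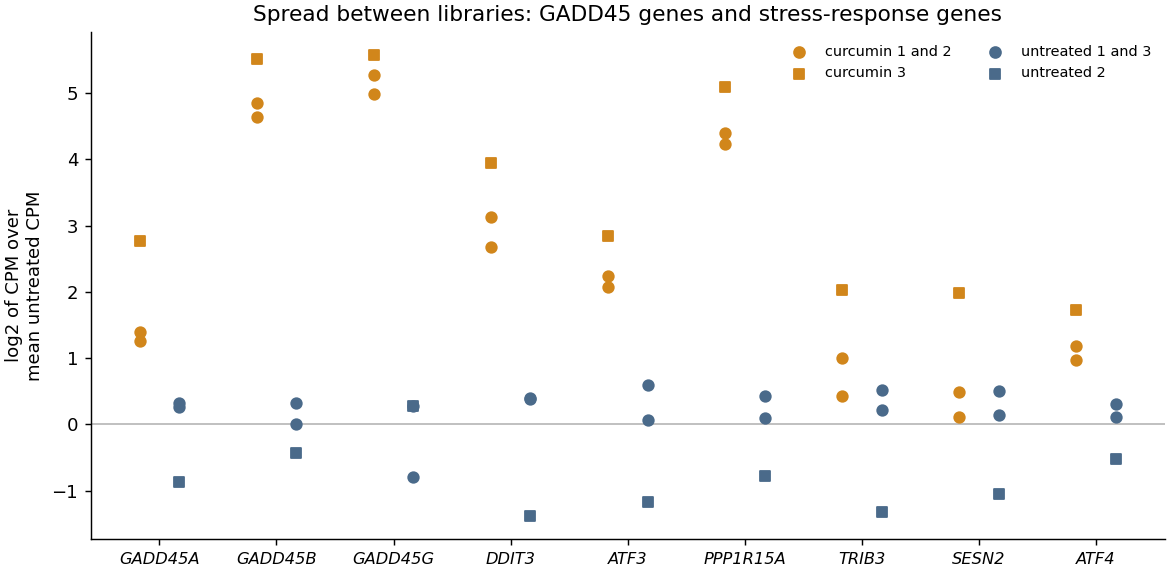
Each library's level as log2 of its CPM over the mean untreated CPM of the gene, for the GADD45 genes and 6 stress-response genes chosen after their values were seen, with curcumin left of untreated within each gene; squares mark curcumin replicate 3 and untreated replicate 2. Curcumin replicate 3 is the highest curcumin library for each gene shown, as for 41.25% of all genes tested, and for TRIB3 and SESN2 the groups overlap.

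Profiles were compared as the root-mean-square difference over the 6 libraries between log2 CPM values, each gene centred on its untreated mean. The 10625 protein-coding genes compared had a mean of at least 5 CPM over the libraries. Genes low in untreated cells, such as CD14, SERPINC1, HIST1H1E and FERMT3, met that minimum only through their curcumin libraries. The measure includes the difference between the groups, so a likeness is a description and no test. GADD45B and GADD45G differed by 0.41, and GADD45A differed from them by 2.23 and 2.30. Outside the family, the genes most like GADD45A were PTAFR (0.17), RGS16 (0.26), RIPK4 (0.28), GEM (0.30) and RIOK3 (0.30). PTAFR, the platelet-activating factor receptor, had 6.57, 8.72 and 26.5 CPM in curcumin replicates 1, 2 and 3, against 3.45, 1.89 and 3.93 CPM in untreated replicates 1, 2 and 3. Outside the family, those most like GADD45B were CD14 (0.33), SERPINC1 (0.34), PPP1R15A (0.35), PUF60 (0.49) and HIST1H1E (0.57), of which PUF60 and HIST1H1E were farther from it than GADD45G was. Those outside the family most like GADD45G were HIST1H1E (0.40), FERMT3 (0.54), PUF60 (0.54), CD14 (0.57) and RNASEK-C17orf49 (0.65), a read-through gene whose counts are uncertain because its reads can come from RNASEK or C17orf49. Of these 5, HIST1H1E alone was as near to GADD45G as GADD45B was. CD14, a monocyte marker, had 11.2, 17.6 and 28.8 CPM in curcumin replicates 1, 2 and 3, against 0.568, 0.205 and 0.275 CPM in untreated replicates 1, 2 and 3. It was the only 1 of the 4 leukocyte markers listed to be tested, CD3E was at 0 in all 6 libraries, and PTPRC did not exceed 0.555 CPM.

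Among the 10 neighbouring protein-coding genes tested, none had a log2 fold change above 0.69. The nearest protein-coding gene above GADD45A, GNG12, lay 13.1 kb away and had a log2 fold change of -0.45 ± 0.16 (edgeR adjusted p = 0.036), not called without curcumin replicate 2 or 3 or untreated replicate 1 or 3 (0.072 to 0.086). SERBP1, the nearest on the other side, and DIRAS3, the next beyond GNG12, were not called (-0.20 ± 0.13 and -0.87 ± 0.43), DIRAS3 was called lower without curcumin replicate 3 (0.032), and IL12RB2 was below the count filter. Around GADD45B, LMNB2 (19.1 kb away) and GNG7 (33.0 kb) were not called (0.04 ± 0.22 and -0.04 ± 0.21), TIMM13 had 0.64 ± 0.21 and DIRAS1 -0.53 ± 0.17 (edgeR adjusted p = 0.022 for each). TIMM13 was not called without curcumin replicate 1 or untreated replicate 1 or 3 (0.073 to 0.090) nor with library size alone (-0.16), and DIRAS1 was not called without curcumin replicate 2 (0.050) or untreated replicate 3 (0.077). LMNB2 was called higher without untreated replicate 2 (0.049). Around GADD45G, SEMA4D (107 kb) was not called (-0.67 ± 0.27) except without curcumin replicate 3 among the removals of 1 library (0.00038), and limma-voom and DESeq2 called it lower (adjusted p = 0.022 and 0.048). SECISBP2 had 0.69 ± 0.17 and SYK -0.80 ± 0.21 (edgeR adjusted p = 0.0069 and 0.0087), with -0.13 for SECISBP2 under library size alone. DIRAS2 was at 0 counts in all 6 libraries. With the length trend removed GNG12 (-0.14), TIMM13 (0.28), DIRAS1 (-0.41) and SYK (-0.40) were not called (edgeR adjusted p = 0.51, 0.26, 0.061 and 0.13). In that setting SERBP1 was called higher (0.455) and DIRAS3 lower (-1.21; edgeR adjusted p = 0.02 and 0.042). With library size alone SERBP1, DIRAS3, LMNB2, GNG7 and SEMA4D were called lower (edgeR adjusted p = 8.5e-05 to 0.0078), as 56.5% of all genes tested were. Genes of the G protein gamma family (GNG12, GNG7) flank GADD45A and GADD45B, and a DIRAS gene (DIRAS3, DIRAS1, DIRAS2) is among these neighbours of each member.

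The members' log2 fold changes were recomputed under 17 other settings. GADD45A ranged from 1.04 to 2.23, GADD45B from 4.23 to 5.23 and GADD45G from 4.395 to 5.42, and each was above 0 in each setting. GADD45A had its lowest value with curcumin replicate 3 and untreated replicate 2 both left out, GADD45B with library size alone and GADD45G with the length trend removed.

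**Figure D5:**
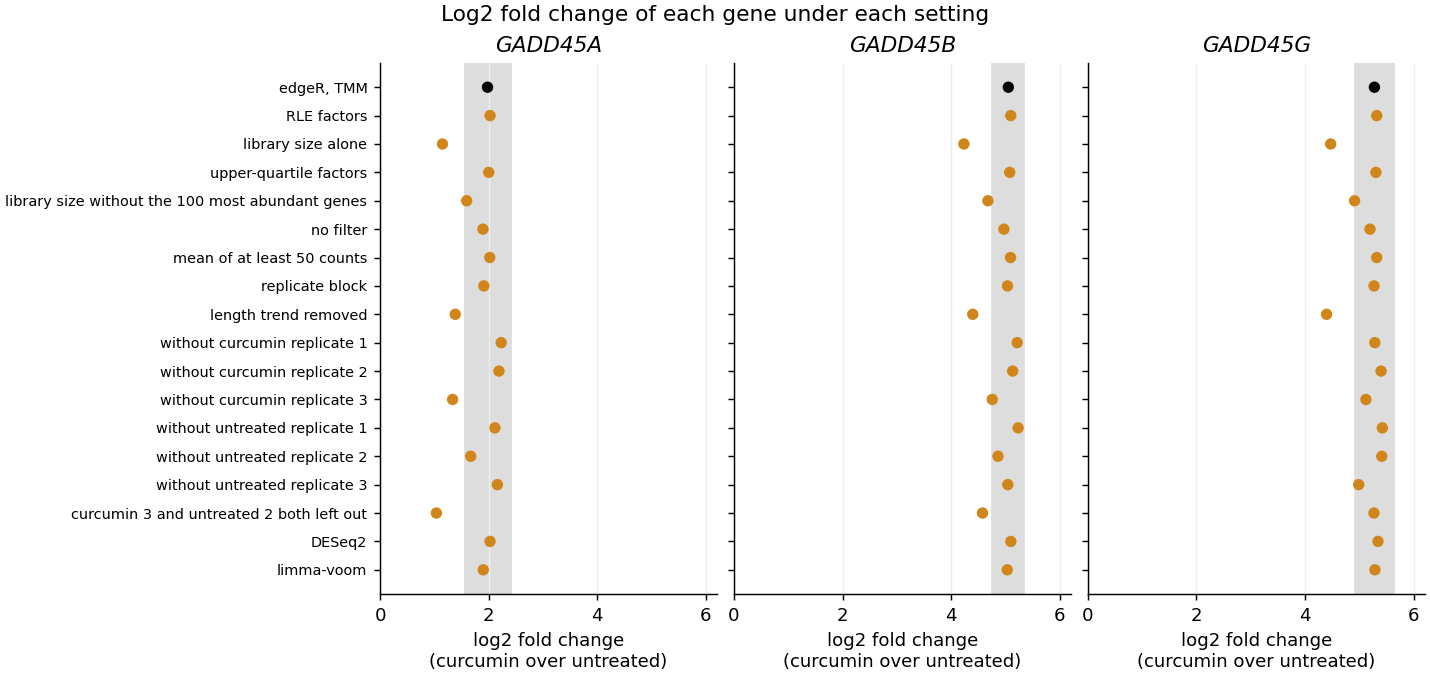
Log2 fold change (curcumin over untreated) of each GADD45 gene in the edgeR fit with TMM factors (black, with its standard error as the grey band) and under 17 other settings (orange). GADD45A spans 1.04 to 2.23, GADD45B 4.23 to 5.23 and GADD45G 4.395 to 5.42.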

How the data were processed

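Total RNA of 3 curcumin-treated and 3 untreated HCT116 samples was turned into sequencing libraries using SMARTer mRNA-Seq reagents, per the labels' protocols. The values the authors deposited are estimated counts per gene, not whole and not scaled between libraries. How reads were aligned and counted, with which annotation and with or without strand, is not stated by any source used here. GRCm38 and mm10 are the builds in the submitters' processing notes, but all 35106 rows carry human Ensembl identifiers, of which 35003 were found in GENCODE release 29, so the table was read as human. Rounding to whole counts moved no value by more than 0.5.

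Low genes were removed by filterByExpr (count 10, total 15) and TMM factors were applied. All 6 libraries entered the quasi-likelihood test of edgeR 4.0.16 (R 4.3.3), and calls used Benjamini-Hochberg adjusted p-values under 0.05. The standard error of a log2 fold change was taken from its F statistic. A simulation of 3 against 3 libraries over 13718 genes recovered 40 of 40 genes changed by log2 2, 36 of 40 changed by 1 and 23 of 40 changed by -1. It called 9 of 13518 unchanged genes. Its libraries shared the same make-up apart from those few changed genes. It therefore says nothing about errors from the difference in make-up between the real groups. Replicates of a group differed by more than sampling noise (chi-square divided by its degrees of freedom, 11.6 to 75.3).

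The members and the gene lists were chosen with earlier results of these data known. Genes named are the members, all GADD, MyD and binding-partner genes, the 2 higher and 2 lower genes of smallest adjusted p in each other list, marker lists included, the 5 genes outside the family most like each member and the 2 nearest protein-coding genes on each side; others are said to be chosen after their values were seen. Alternatives were RLE (median-of-ratios) and upper-quartile factors, library size alone, library size after removing the top 100 genes, no filter, a minimum mean count of 50, DESeq2 1.42.0, limma-voom (limma 3.58.1), calls that also need a fold of 2, a block on replicate number, the median transcript length per kilobase, a loess (span 0.3) removal of the transcript-length trend and leaving out each library. Leaving out curcumin replicate 3 and untreated replicate 2 together was added after seeing the data. Some genes of these lists are not reported here.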

Additional observations from a re-analysis of the deposited data

How the results depend on the processing

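Each of the 3 members kept the sign of its log2 fold change in each of 17 alternatives, and moved by less than the spread between replicates (SD of log2 CPM 0.76 for GADD45A, 0.42 for GADD45B, 0.39 for GADD45G) in 15, 14 and 15 of them. The exceptions were library size alone (1.15, 4.23 and 4.47 for GADD45A, GADD45B and GADD45G), the length trend removed (4.397 for GADD45B and 4.395 for GADD45G) and curcumin replicate 3 and untreated replicate 2 both left out (1.04 for GADD45A and 4.58 for GADD45B). Genes called higher and lower over all genes were 3732 and 3964 in the edgeR fit with TMM factors. They were 1320 and 7747 with library size alone and 2244 and 2386 at a fold of at least 2. Dropping the top 100 genes gave 2554 and 5599, no filter 4008 and 4389, and removing the length trend 3649 and 2946. Leaving out both curcumin replicate 3 and untreated replicate 2 gave 4104 and 4481. Leaving out 1 library at a time gave 3253 to 3843 and 3369 to 4306. Each is the background for the list counts under the same setting. With library size alone the counts higher and lower were 1 and 9 for binding partners, 2 and 14 for regulators, 1 and 12 for the stress kinase cascade, 4 and 10 for ATF4 and CHOP targets, 0 and 10 for NF-kB targets, 0 and 8 for the G2 to M transition, and 1 and 10 for demethylation and repair. When the top 100 genes were dropped from the library sizes, 1 and 8 stress kinase genes were higher and lower, and 7 NF-kB targets and 4 G2 to M genes were lower. With no filter 1 stress kinase gene was higher and 4 G2 to M genes were lower. With the length trend removed 5 stress kinase genes and 5 NF-kB targets were higher and 3 demethylation genes lower. At a fold of at least 2, 0 GADD and MyD genes, 2 binding partners, 3 stress kinase genes, 1 NF-kB target and 1 G2 to M gene were lower, and 1 stress kinase gene and 1 demethylation gene were higher. With curcumin replicate 3 and untreated replicate 2 both left out, 3 binding partners, 11 ATF4 and CHOP targets, 8 NF-kB targets and 1 G2 to M gene were lower, and 5 stress kinase, 5 G2 to M and 6 demethylation genes were higher. Leaving out 1 library at a time gave 3 to 5 binding partners lower, 1 to 4 stress kinase genes higher, 1 to 4 G2 to M genes lower, 3 to 6 demethylation genes higher and 3 to 6 NF-kB targets lower. For all these counts the cause was not tested. The labels give both groups the replicate numbers 1 to 3 with no stated pairing. Deviations of same-numbered libraries correlated at 0.04, 0.023 and 0.11, and untreated replicate 2 correlated best with curcumin replicate 1 (0.039). With 3 libraries per group, values this small cannot decide whether the numbers pair the samples. With the replicate block the log2 fold changes were 1.91, 5.04 and 5.27 and the calls 3683 higher and 4011 lower. Depth limits GADD45G in untreated cells, where it rests on 31 counts in all.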

Other observations

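Some genes that mark blood or vessel cells and are nearly silent in untreated HCT116 cells had higher levels after curcumin, as GADD45G did. PECAM1, an endothelial and leukocyte adhesion receptor and the 1 called gene of the endothelial marker list, had 6.65, 13.0 and 24.99 CPM in curcumin replicates 1, 2 and 3, against 0, 0.123 and 0.157 CPM in untreated replicates 1, 2 and 3. FERMT3, an integrin activator of blood cells, had 17.8, 21.2 and 45.8 CPM in curcumin replicates 1, 2 and 3, against 0.720, 1.40 and 0.904 CPM in untreated replicates 1, 2 and 3. Curcumin replicate 3 was the highest library for both, as it was for the GADD45 genes. It was the highest curcumin library for 41.25% of all genes tested. FERMT3 was named because its profile over these same libraries was among the most like GADD45G, so its shared pattern follows from that choice. The listed endothelial markers summed to 8.29 to 28.04 CPM with curcumin and 1.36 to 2.20 CPM untreated, with CDH5 at no more than 0.118 CPM. Most of the difference was in PECAM1. VWF, the other endothelial marker tested, had 2.67 ± 0.903 CPM with curcumin and 1.58 ± 0.395 CPM untreated (SD, n = 3 each) and was not called (edgeR adjusted p = 0.19). With the length trend removed VWF was called higher (log2 1.577, edgeR adjusted p = 0.016). The listed leukocyte markers summed to 11.2 to 29.5 CPM with curcumin and 0.205 to 0.568 CPM untreated, nearly all of it CD14. The listed fibroblast markers summed to 15.2 to 37.5 CPM with curcumin and 25.9 to 30.7 CPM untreated. Their part in the GADD45 values was not tested.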
